A study of Mus musculus with 10 samples.

Results

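Abhd5, Hilpda and Hsd17b13 encode proteins of the surface of the cytosolic lipid droplet, the store of triglyceride and cholesteryl ester in the hepatocyte. They were followed across mouse livers in which the sterol regulatory element-binding protein (SREBP) pathway was forced on or blocked. Each gene was taken by its symbol, and every probe set that the array annotation assigns to exactly 1 of the symbols was used, whatever its values. That gave 1 probe set per gene, so the 3 genes stand among 7542 named genes on the array: 163149_at for Abhd5 on chromosome 9, 113650_at for Hilpda on chromosome 6 and 107556_at for Hsd17b13 on chromosome 5.

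Total liver RNA was hybridised to the B chip of the Affymetrix U74 version 2 mouse set, on which each gene is read by sets of short probes. All animals were male. In the transgenic study, mice aged 12 to 16 weeks were wild-type littermates or carried TgSREBP-1a or TgSREBP-2, transgenes that make active nuclear human SREBP-1a or SREBP-2 in excess, and all of them ate a diet high in protein and low in carbohydrate for 2 weeks, which raises transgene expression. In the Scap study, mice aged 10 to 12 weeks on Teklad chow were wild type or Scap-/-;MX1-Cre, lacking in liver the SCAP protein that escorts SREBPs to the Golgi for activation. The wild-type mice of that study received the same 4 injections of polyinosinic-polycytidylic acid that induce the Cre recombinase, and livers were taken 14 days after the last. Each of the 5 groups was 1 pool of RNA from 5 livers (20 µg), hybridised to 2 arrays. The spread between the 2 arrays of a group is therefore hybridisation error, and no p-value here says how single mice vary. Diet, age and injections differ between the studies, so each manipulated group was compared with the wild type of its own study.

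SREBPs are membrane-bound transcription factors that are released to the nucleus when the cell is short of sterol. SREBP-1 forms favour genes of fatty acid and triglyceride synthesis, and SREBP-2 favours genes of cholesterol synthesis and uptake. Triglyceride in droplets is broken down by lipases, foremost the adipose triglyceride lipase Pnpla2. Abhd5, also known as CGI-58, is the coactivator of that lipase. Hilpda is a small protein induced by hypoxia and by fatty acids that inhibits the same lipase. Hsd17b13 is a liver-enriched droplet protein of the 17-beta hydroxysteroid dehydrogenase family, and variants of its human counterpart are associated with chronic liver disease.

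The promoter windows of the 3 genes are shown because SREBPs act on sites near gene starts and the values below move with the SREBP genotype. They were taken from RefSeq on GRCm38.p6, in which all 3 symbols were matched, and each covers the 250 bases before an annotated start, read 5′ to 3′ along the gene's strand. Capitals mark a GC box (GGGCGG, bound by Sp1, a common partner of SREBPs), a hypoxia response core (ACGTG or GCGTG) or a nuclear receptor half-site (AGGTCA, seen as TGACCT where it lies on the other strand). The Abhd5 window lies at chr9:122351366-122351615 on the plus strand, the first Hilpda window at chr6:29272238-29272487 on the plus strand and the Hsd17b13 window at chr5:103977389-103977638 on the minus strand.
Abhd5: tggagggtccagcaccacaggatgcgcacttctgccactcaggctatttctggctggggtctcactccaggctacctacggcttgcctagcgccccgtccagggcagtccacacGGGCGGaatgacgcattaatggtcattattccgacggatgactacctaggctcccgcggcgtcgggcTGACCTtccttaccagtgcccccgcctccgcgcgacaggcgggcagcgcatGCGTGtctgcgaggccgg
Hilpda: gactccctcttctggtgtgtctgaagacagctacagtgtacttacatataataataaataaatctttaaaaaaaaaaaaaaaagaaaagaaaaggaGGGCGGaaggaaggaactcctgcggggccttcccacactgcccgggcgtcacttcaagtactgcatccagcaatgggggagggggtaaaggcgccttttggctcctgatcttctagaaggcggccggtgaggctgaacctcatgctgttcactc
Hsd17b13: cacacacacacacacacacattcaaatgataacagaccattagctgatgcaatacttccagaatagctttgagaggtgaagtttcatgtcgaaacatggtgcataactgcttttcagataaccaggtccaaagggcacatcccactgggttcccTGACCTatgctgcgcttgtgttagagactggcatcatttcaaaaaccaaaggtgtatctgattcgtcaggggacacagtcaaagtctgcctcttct
RefSeq gives Hilpda a second start 138 bases further on. The stretch at chr6:29272573-29272597, shown because it holds a hypoxia core ahead of that start, reads as follows.
Hilpda, second start: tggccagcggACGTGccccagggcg

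None of the windows holds the classical sterol regulatory element TCACNCCAC, the palindromic E-box CACGTG or the NF-Y box CCAAT on either strand. The sterol element is rare in windows of this length: 1.05% of 32851 RefSeq mouse windows hold it. Counted by gene, 331 of 27025 genes have it in at least 1 window (1.22%). Of 25 textbook SREBP target genes with a window only Hmgcs1 has it (4.0%). Its absence says only that these letters are not in these windows. The Abhd5 window has its GC box 136 bases, its half-site 69 bases and a GCGTG core 18 bases before the start. The first Hilpda window has 1 GC box 154 bases before the start, and the window of the second start has an ACGTG core 43 bases before it and GCGTG cores 111 and 8 bases before it. The Hsd17b13 window has a half-site 96 bases before the start and a general E-box of the form CANNTG, with the letters CAAATG, 228 bases before it. GC boxes occur in 32.7% of all windows, ACGTG cores in 16.6%, GCGTG cores in 28.2%, half-sites in 14.0% and CANNTG in 66.2%, so none of these matches is rare in such windows. The windows also differ in base composition: G and C make up 64.8% of the Abhd5 window, 48.4% of the first Hilpda window and 44.8% of the Hsd17b13 window, against a median of 52.4% over all windows.

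The values are deposited log2 expression values, so a difference of 1 is a doubling. In this report a probe set is called where limma's adjusted p is under 0.05 and the fold is at least 1.5. The fit used all 10 arrays and adjusted p over 12411 probe sets, and the value after ± beside a log2 change is its standard error (SE). Array medians lay between 5.63 and 5.66, and all 30 values of the 3 genes lay above the median of their own array. Levels were compared between arrays for 1 probe set at a time and between probe sets only to take the brightest of a gene. The exception is the cell type markers, whose linear values were summed over genes. The labels held up on marker genes. Scap itself read 9.24 and 8.89 in wild type and 7.94 and 7.75 in Scap-/- (change -1.22 ± 0.18, adjusted p = 0.018), while its second probe set, 165021_at, changed by 0.12 ± 0.13. Insig1, an SREBP target that restrains SREBP activation, rose by 3.03 ± 0.24 in TgSREBP-1a and by 2.36 ± 0.24 in TgSREBP-2, and it fell by 2.53 ± 0.24 in Scap-/-. Of 36 listed SREBP targets 18 were measured. Of these, 17 were called higher in TgSREBP-1a, 13 were called higher in TgSREBP-2 and 12 were called lower in Scap-/-. The shares of all probe sets called in these comparisons were 2.18%, 0.500% and 0.274%.

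Abhd5 rose in TgSREBP-1a liver. Its values were 7.39 and 7.13 in TgSREBP-1a and 6.27 and 5.96 in the wild type of the transgenic study. Both transgenic arrays lay above both wild-type arrays, and the lowest of the former was 0.86 above the highest of the latter. The means of 7.26 ± 0.18 and 6.12 ± 0.22 (SD, n = 2 arrays) differ by 1.14 ± 0.17, a 2.21-fold rise with a 95% interval of 0.77 to 1.51 on the log2 scale (adjusted p = 0.0035, limma). The call rests on few arrays: without array 1 of TgSREBP-1a the change was 1.01 (adjusted p = 0.062), and without array 2 of wild type it was 0.99 (adjusted p = 0.053). In this comparison 2.18% of all probe sets were called, and 42.4% had arrays of the 2 groups that did not overlap, so separation of the arrays by itself is common. Abhd5 ranked 69 of 12411 by the size of its rise.

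In TgSREBP-2 liver Abhd5 read 5.87 and 6.17. These values overlap those of wild type, and the difference was -0.09 ± 0.17 with an interval from -0.46 to 0.27 (adjusted p = 0.92). A rise of the size seen in TgSREBP-1a lies outside that interval. In the Scap study Abhd5 read 6.54 and 6.45 in wild type and 5.87 and 6.27 in Scap-/-. Both Scap-/- arrays lay below both wild-type arrays, but they differed from each other by 0.40. The change of -0.42 ± 0.17 had an unadjusted p of 0.029 and an adjusted p of 0.62 and was not called. Of all probe sets, 0.500% were called in TgSREBP-2 against wild type and 0.274% in Scap-/- against wild type. The arrays of the groups did not overlap for 40.0% and 34.4% of probe sets in these comparisons.

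Hilpda also rose in TgSREBP-1a liver, and its duplicates were the closest of the 3 genes. It read 7.68 and 7.65 in TgSREBP-1a against 6.99 and 6.94 in wild type. The transgenic arrays stood 0.66 or more above the wild-type arrays, while arrays of the same pool differed by 0.03 and 0.04. The change was 0.70 ± 0.09, or 1.63-fold, with an interval of 0.50 to 0.90 (adjusted p = 0.0017), and it ranked 161 among rises. It stayed called when any 1 of the 10 arrays was left out, with changes of 0.68 to 0.72.

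In TgSREBP-2 liver Hilpda read 6.89 and 7.06, on both sides of the wild-type values. The difference of 0.01 ± 0.09 had an interval from -0.19 to 0.21 (adjusted p = 0.99). In the Scap study it read 6.69 and 6.70 in wild type and 6.94 and 6.95 in Scap-/-. The Scap-/- arrays were both higher, the opposite side from Abhd5, but the change of 0.25 ± 0.09 was 1.19-fold and not called (unadjusted p = 0.020, adjusted p = 0.60). For neither gene did loss of SCAP give a call, so opposite movement in the gain and the loss of SREBP activity was not called. A missing call does not exclude such movement. In Scap-/- against wild type, 960 of 12411 probe sets had an unadjusted limma p under 0.05. The intervals are likewise not adjusted for the number of probe sets, so they do not settle a direction. The interval of the Scap-/- change was -0.79 to -0.05 for Abhd5, opposite in sign to its rise in TgSREBP-1a. For Hilpda it was 0.05 to 0.46, of the same sign as its rise.

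Hsd17b13 had the widest range of the 3 genes. It read 8.04 and 7.85 in TgSREBP-1a, 7.26 and 6.97 in the wild type of the same study, and 5.93 and 6.10 in TgSREBP-2. The 3 groups did not overlap: TgSREBP-1a was above wild type on all arrays and TgSREBP-2 was below it on all arrays. Such separation is common among all probe sets. It held for 42.4% in TgSREBP-1a against wild type, 40.0% in TgSREBP-2 against wild type and 46.1% between the transgenic livers. The fall in TgSREBP-2 was 1.10 ± 0.24 on the log2 scale with an interval from -1.63 to -0.57, which leaves 46.7% of the wild-type level, and it was the 11th largest fall among 12411 probe sets. The rise in TgSREBP-1a was 0.83 ± 0.24 with an interval of 0.30 to 1.36, or 1.77-fold. Neither passed the threshold over all probe sets (adjusted p = 0.12 for TgSREBP-2 and 0.14 for TgSREBP-1a).

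Whether these changes of Hsd17b13 are called depended on how the fit was set. In the Scap study, whose arrays enter the shared spread, Hsd17b13 read 8.04 and 7.44 in wild type and 8.13 and 7.41 in Scap-/-, so the duplicates of 1 pool differed by 0.60 and 0.73, against 0.29 or less within each of the 3 other pools. In both pools array 1 was the higher, as it was in TgSREBP-1a and in the transgenic-study wild type and not in TgSREBP-2. With only the 4 arrays of the compared groups in the fit, the same changes were called (adjusted p = 0.0043 for TgSREBP-1a and 0.010 for TgSREBP-2). With all 10 arrays and array number as a block, both were called as well (adjusted p = 0.022 and 0.013). Leaving out any 1 of the 4 Scap-study arrays brought the fall in TgSREBP-2 to an adjusted p of 0.040 and left the rise in TgSREBP-1a at 0.052 or above. Leaving out an array of the transgenic study gave adjusted p up to 0.68 and 0.81.

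**Figure D1:**
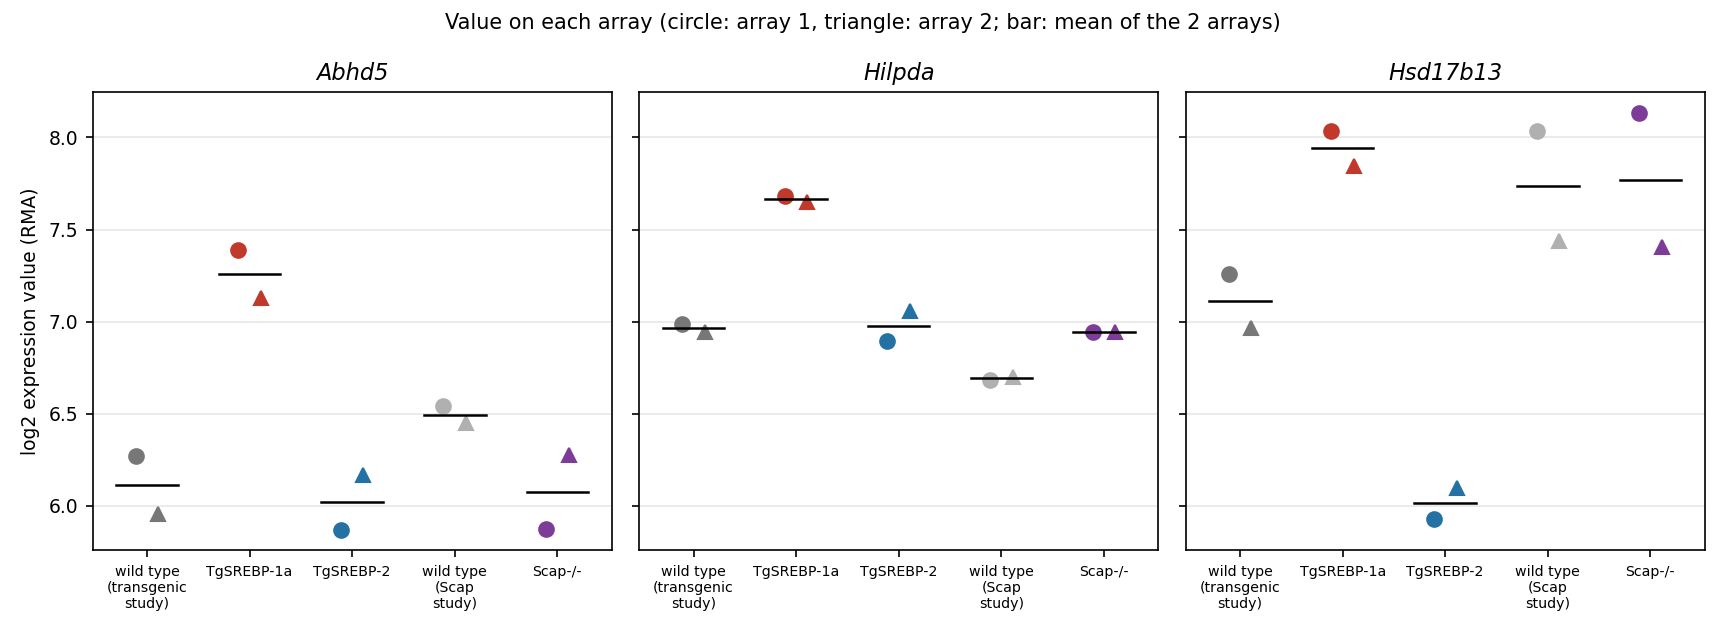
Deposited log2 expression value (vertical axis) of Abhd5, Hilpda and Hsd17b13 on each of the 10 arrays, in the 5 groups named along the horizontal axis; circles are array 1, triangles array 2 and bars the mean of both. TgSREBP-1a has the highest mean in each panel, and Hsd17b13 in TgSREBP-2 sits at 5.93 and 6.10, below all its other arrays.

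**Figure D2:**
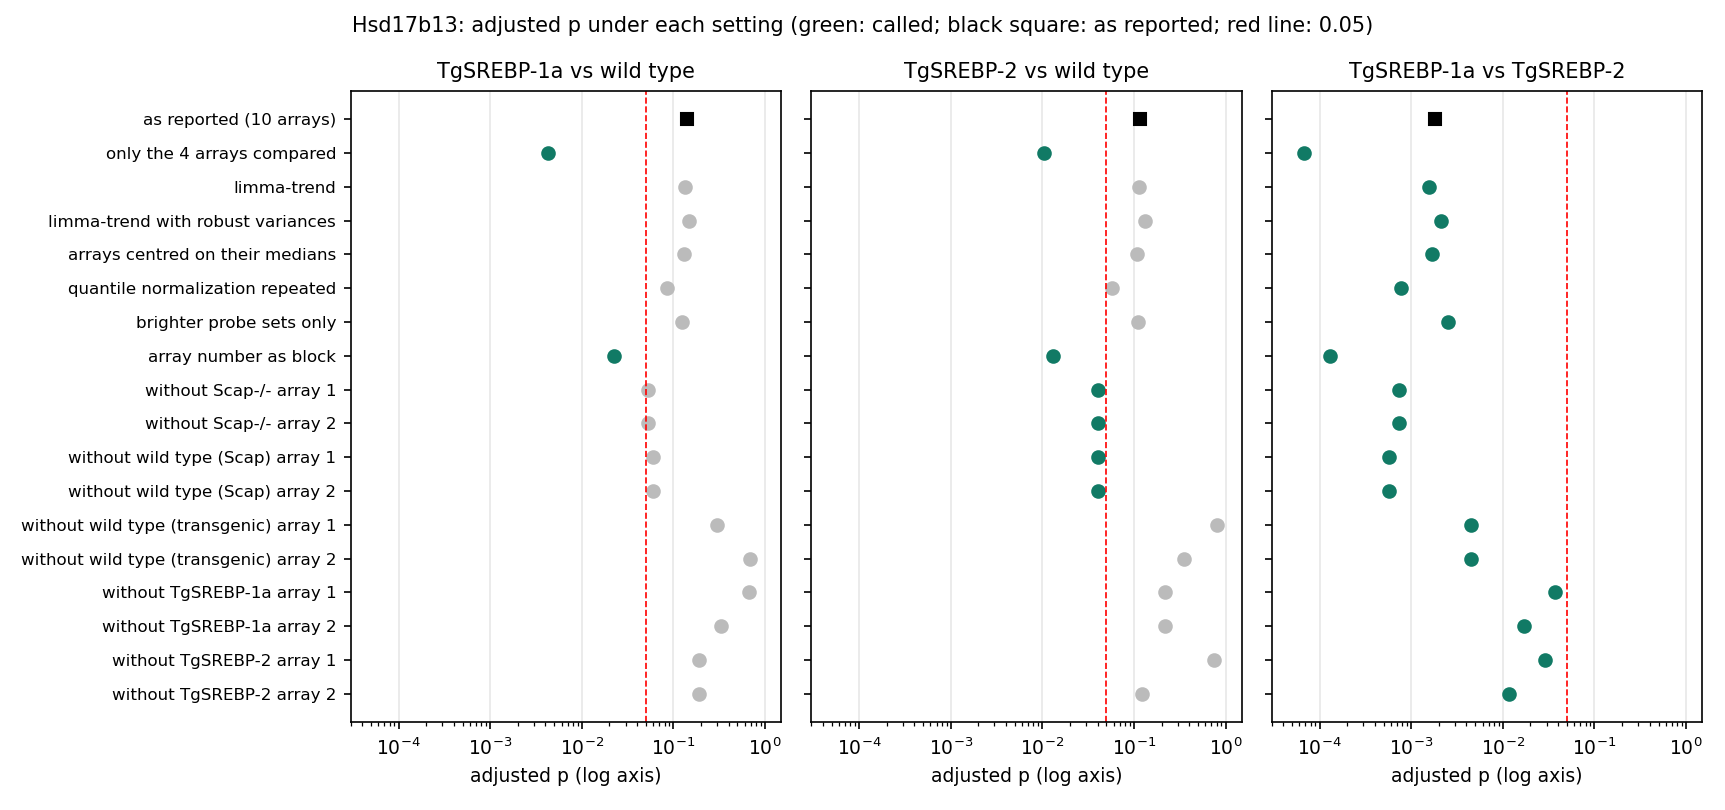
Adjusted p of Hsd17b13 (horizontal log axis) under each setting of the test (rows) in 3 comparisons; the black square is the 10-array fit, green points are called, grey points are not and the dashed line is 0.05. Against wild type the points lie on both sides of the line, while for TgSREBP-1a against TgSREBP-2 all points lie left of it, at 0.037 or below.

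Loss of SCAP left Hsd17b13 at a like mean but with a wide error. The Scap-/- and wild-type arrays overlapped, and the difference of 0.03 ± 0.24 had an interval from -0.50 to 0.56 (adjusted p = 0.98). A change of up to about 1.5-fold in either direction therefore lies within the error, and the sign of the difference turned when single Scap-study arrays were left out.

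Compared directly, the transgenic livers, which share a diet, differed in all 3 genes, and TgSREBP-1a was the higher each time. Abhd5 was higher by 1.24 ± 0.17, or 2.36-fold (adjusted p = 0.0028). Hilpda was higher by 0.69 ± 0.09, or 1.61-fold (adjusted p = 0.0027). Hsd17b13 was higher by 1.93 ± 0.24, or 3.80-fold (adjusted p = 0.0018), with an interval of 1.40 to 2.46. The Hsd17b13 difference was the 8th largest rise of 12411, Abhd5 ranked 44 and Hilpda 153. In this comparison 1.86% of probe sets were called in either direction and 46.1% had groups that did not overlap. The calls for Hilpda and Hsd17b13 held with any 1 array left out, at adjusted p of up to 0.046 and 0.037, while that for Abhd5 was lost without array 1 of TgSREBP-1a (1.11, adjusted p = 0.056). The 2 differences from wild type share the wild-type arrays, and the direct contrast does not use them.

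The responses of the 2 studies were also set against each other by subtracting the Scap-/- change from the transgenic change. For Abhd5 the TgSREBP-1a response exceeded the Scap-/- response by 1.56 ± 0.23 (interval 1.04 to 2.08, adjusted p = 0.0078), and this was called. It was not called without array 1 of TgSREBP-1a (1.43, adjusted p = 0.056). For Hilpda the difference was 0.45 ± 0.13 (adjusted p = 0.19) and for Hsd17b13 it was 0.79 ± 0.34 (adjusted p = 0.47). The TgSREBP-2 response minus the Scap-/- response was 0.33 ± 0.23 for Abhd5, -0.24 ± 0.13 for Hilpda and -1.13 ± 0.34 for Hsd17b13, with adjusted p of 0.83, 0.81 and 0.48. These differences were called for 1.31% of probe sets with TgSREBP-1a and 0.427% with TgSREBP-2. Diet, age and injections differ between the studies, and their part cannot be told apart from that of genotype in the difference.

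**Figure D3:**
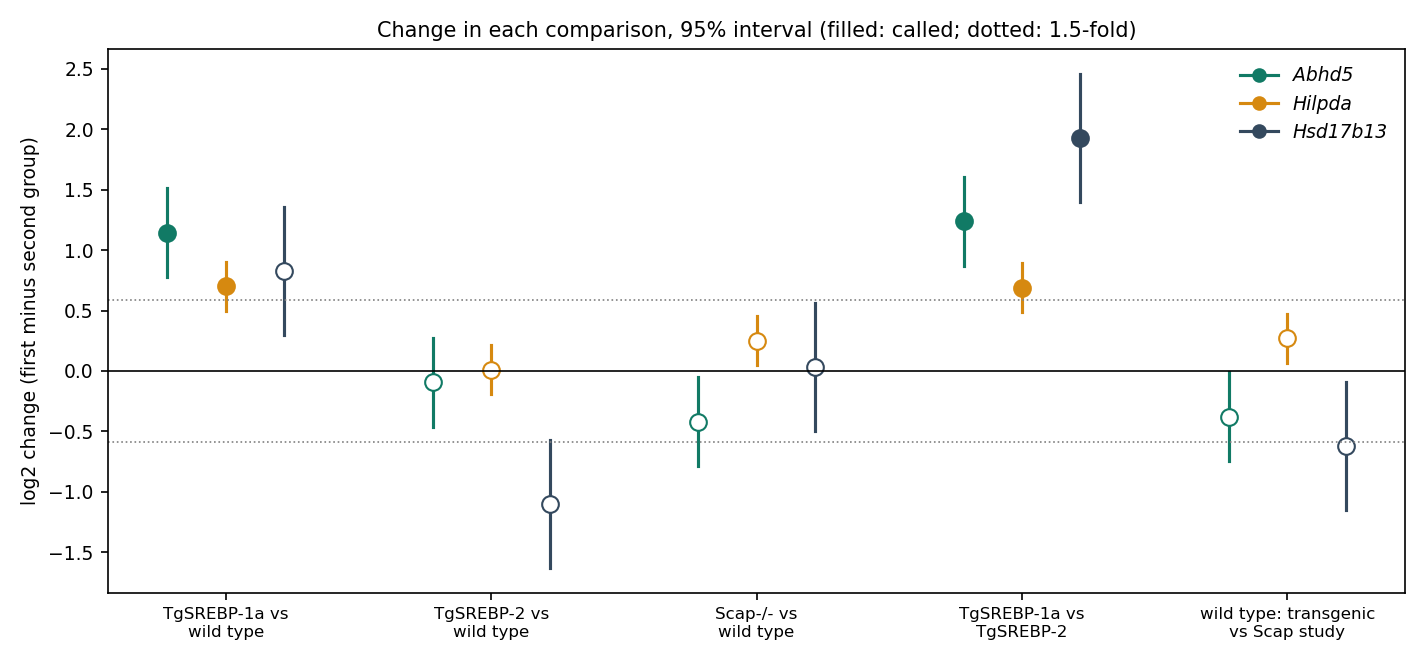
Log2 change with its 95% interval (vertical axis) of each gene in the 5 comparisons of 2 groups along the horizontal axis; filled points are called and dotted lines mark a 1.5-fold change. Filled points appear for Abhd5 and Hilpda in TgSREBP-1a against wild type and for all 3 genes in TgSREBP-1a against TgSREBP-2, where Hsd17b13 reaches 1.93.

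The wild types of the 2 studies, which differ in diet, age and injections, were compared as well. Transgenic-study wild type minus Scap-study wild type was -0.38 ± 0.17 for Abhd5, 0.27 ± 0.09 for Hilpda and -0.62 ± 0.24 for Hsd17b13. In each gene the arrays of the 2 wild-type pools did not overlap, which held for 42.0% of all probe sets. None of the 3 was called (adjusted p of 0.50, 0.34 and 0.42), against 0.508% of all probe sets. For Hsd17b13 the difference between the wild types has an interval from -1.15 to -0.09, which overlaps in size that of its rise in TgSREBP-1a.

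Ordered by mean, TgSREBP-1a stood first for each gene. For Abhd5 it was followed by Scap-study wild type at 6.50 and then, with overlapping arrays, by transgenic-study wild type at 6.12, Scap-/- at 6.07 and TgSREBP-2 at 6.02. For Hilpda the middle places, TgSREBP-2 at 6.98, wild type at 6.96 and Scap-/- at 6.94, overlapped, and Scap-study wild type was last at 6.69. For Hsd17b13, TgSREBP-1a at 7.94 overlapped both groups of the Scap study at 7.77 and 7.74, then came transgenic-study wild type at 7.11 and TgSREBP-2 at 6.01. The highest group is thus set apart from the next by its arrays for Abhd5 and Hilpda and not for Hsd17b13.

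Other genes of the droplet were described in the same way. Of 38 listed droplet coat and biogenesis genes 12 were measured, and 2 of them rose in both transgenic livers: Acsl3, an acyl-CoA synthetase found on nascent droplets, and Nsdhl, a sterol-synthesis enzyme that also locates to droplets. The 2 called of 12 stand beside 2.18% and 0.500% of all probe sets. Nsdhl is also among the SREBP targets counted above. Acsl3 by probe set 108041_at read 4.51 and 4.49 in the wild-type livers. The TgSREBP-1a arrays gave 6.92 and 6.43, and the TgSREBP-2 arrays gave 5.70 and 5.78. It rose by 2.18 ± 0.15 in TgSREBP-1a and 1.24 ± 0.15 in TgSREBP-2, and the TgSREBP-1a livers exceeded the TgSREBP-2 livers by 0.93 ± 0.15. The other Acsl3 probe set, 165246_r_at, was not called in any comparison. It was the brighter one in wild type (4.74 and 4.91), so 108041_at stands for the gene only through the transgenic groups in which it is high, and the count of 2 rests on that choice. Nsdhl rose by 1.05 ± 0.13 and 1.49 ± 0.13 and fell by 0.95 ± 0.13 in Scap-/-, so it was called in opposite directions in the gain and the loss. Ubxn4 was called only through its dimmer probe set 115146_g_at, at 0.64 ± 0.12 in TgSREBP-1a against TgSREBP-2. The median change of the 12 genes was 0.08 in TgSREBP-1a, 0.04 in TgSREBP-2 and 0.02 in Scap-/-, beside -0.02, -0.02 and 0.02 over all probe sets. The perilipins, the CIDE proteins, Pnpla2 and its inhibitor G0s2 were not analysed here.

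Of 28 lipolysis genes 11 were measured, and 1 was called against wild type by its brightest probe set. That was Pnpla3 in TgSREBP-1a, and Pnpla3 is also among the SREBP targets counted above. Of all probe sets, 2.18% were called in TgSREBP-1a, 0.500% in TgSREBP-2 and 0.274% in Scap-/-, each against wild type. Pnpla3, a droplet acylhydrolase known to bind ABHD5, read 8.31 and 7.86 in TgSREBP-1a, 6.63 and 6.89 in wild type and 6.67 and 6.87 in TgSREBP-2. Both TgSREBP-1a arrays were above all others and the TgSREBP-2 arrays overlapped those of wild type, the same arrangement as for Abhd5. The rise was 1.33 ± 0.15 in TgSREBP-1a (adjusted p = 0.00082), against 0.01 ± 0.15 in TgSREBP-2 and -0.11 ± 0.15 in Scap-/-, and its second probe set, 111093_at, rose by 1.45 ± 0.16. Ces1f, a carboxylesterase, was called in Scap-/- by its dimmer probe set 109159_f_at (-1.56 ± 0.20) and not by the brighter one (-1.27 ± 0.24, adjusted p = 0.086). Carboxylesterase 1 genes are near-identical copies, so these probe sets may read more than 1 of them. Pnpla7, a lysophospholipase, was 1.32 ± 0.24 lower on the log2 scale in the wild type of the transgenic study than in that of the Scap study. It was not called in any comparison with wild type of the same study. Its dimmer probe set, 164397_f_at, read 7.23 and 7.26 in the transgenic-study wild type. In the Scap-study wild type that probe set read 7.93 and 7.54, a difference under the 1.5-fold limit. The median of the 11 genes was 0.14, 0.08 and -0.11 in TgSREBP-1a, TgSREBP-2 and Scap-/-. The monoacylglycerol lipase Abhd6 changed by 0.49 ± 0.10 in TgSREBP-1a, short of the 1.5-fold limit at an adjusted p of 0.032.

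**Figure D4:**
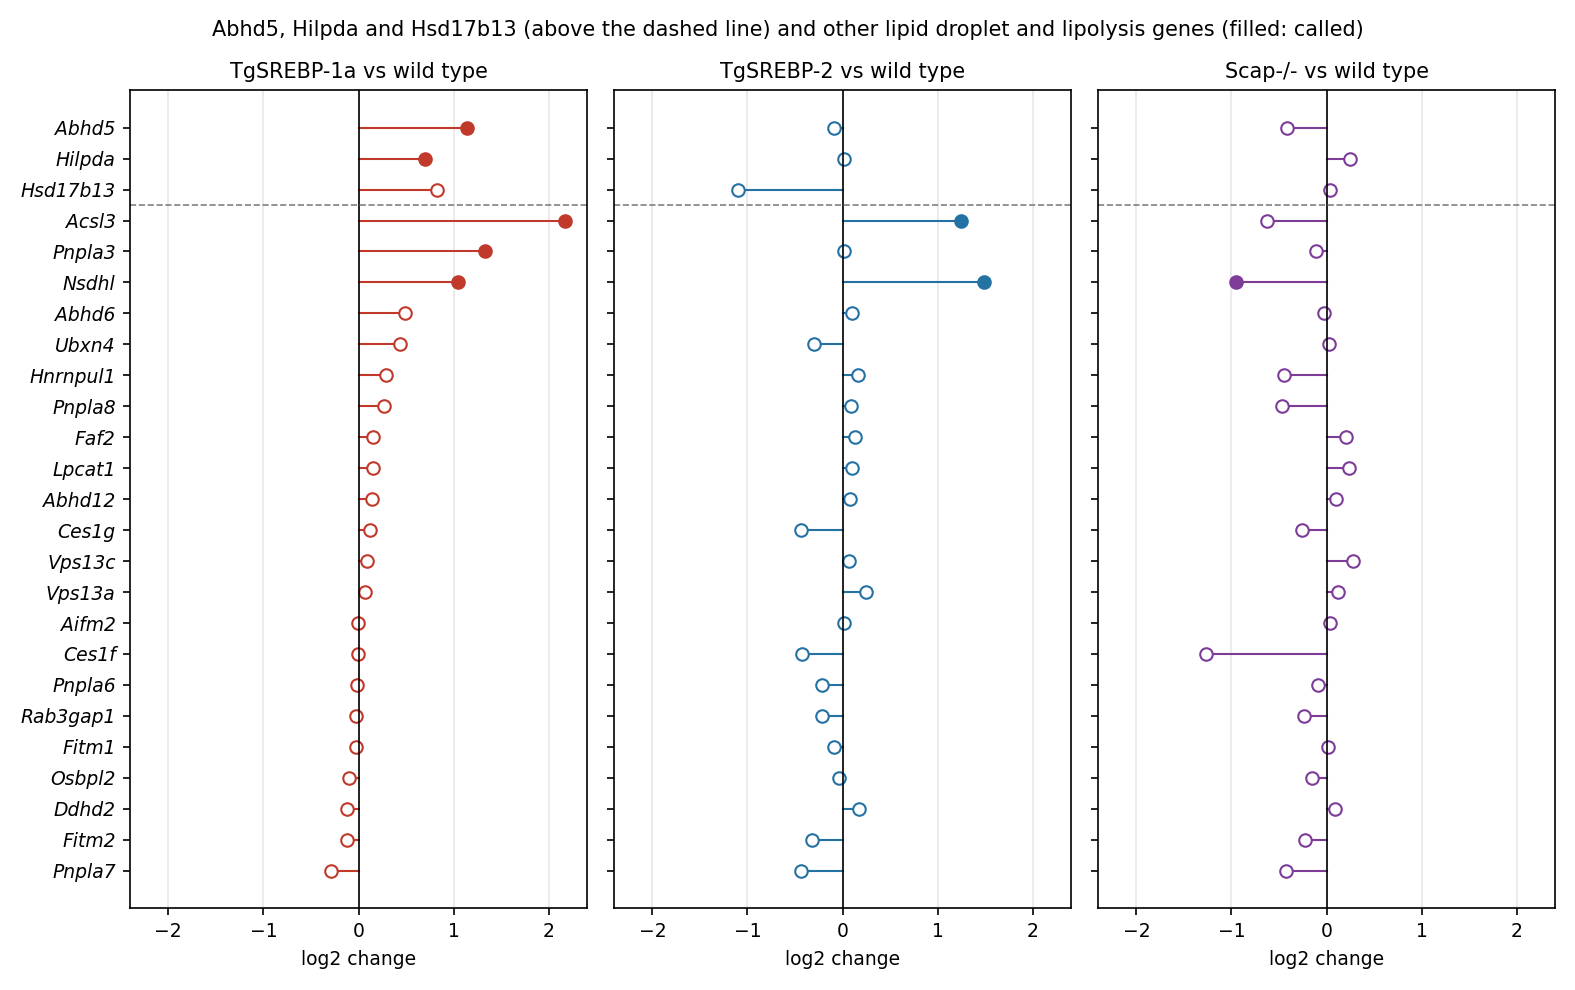
Log2 change (horizontal axis) against the wild type of the same study in TgSREBP-1a, TgSREBP-2 and Scap-/-, for Abhd5, Hilpda and Hsd17b13 above the dashed line and the measured droplet and lipolysis genes below it; filled points are called. Below the line, filled points are Acsl3, Pnpla3 and Nsdhl in TgSREBP-1a, Acsl3 and Nsdhl in TgSREBP-2 and Nsdhl in Scap-/-.

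Triglyceride and phosphatidate synthesis, which feeds the droplet, had 16 of 23 genes measured. The calls below stand beside 2.18% of all probe sets in TgSREBP-1a, 0.500% in TgSREBP-2 and 0.274% in Scap-/-. Lpin1 and, in the family further below, Hsd17b7 are also among the SREBP targets counted above. Lpin1, a phosphatidate phosphatase, rose in TgSREBP-1a (1.30 ± 0.22) and Cds1, which diverts phosphatidate to CDP-diacylglycerol, rose in TgSREBP-2 (1.04 ± 0.13), while none was called in Scap-/-. Hsd17b13's own family had 5 of 11 other members measured. Hsd17b7, an enzyme of cholesterol synthesis, rose by 1.64 ± 0.32 in TgSREBP-1a and 3.02 ± 0.32 in TgSREBP-2 and fell by 2.39 ± 0.32 in Scap-/-. Hsd17b6, a steroid-metabolising enzyme, fell in both transgenic livers, with changes of -1.55 ± 0.18 and -1.0 ± 0.18. Each of them thus changed with the same sign in both transgenic livers, while the changes of Hsd17b13 had opposite signs. Its closest relative, the droplet protein Hsd17b11, was not analysed here.

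Abhd5's structural relatives, the alpha/beta hydrolase domain family, had 13 of 19 other members measured. Abhd4 rose in TgSREBP-1a by 0.66 ± 0.13 (adjusted p = 0.024), the only 1 of the 13 called there, beside 2.18% of all probe sets. Between the transgenic livers, Abhd1 and Abhd17b were higher with TgSREBP-1a, by 0.71 ± 0.15 and 0.59 ± 0.13, beside 1.86% of all probe sets called. Abhd1 by 110067_at read 7.38 and 7.49 in TgSREBP-1a, overlapping wild type (7.64 and 7.43). It read 6.75 and 6.69 in TgSREBP-2, below both. The probe sets of Abhd1 disagreed between the transgenic livers. There 165241_f_at changed by 0.46 ± 0.10, while 164282_at and 164653_at changed by -0.27 ± 0.11 and -0.13 ± 0.11, none of the 3 called. Against wild type, 165241_f_at fell by 0.63 ± 0.10 in TgSREBP-2. The other Abhd17b probe sets changed by 0.30 ± 0.16 and -0.04 ± 0.11 and were not called. Abhd14b by its brightest probe set, 106637_r_at, was called only in the difference between the TgSREBP-1a and the Scap-/- responses, at 1.32 ± 0.22. Its probe set 106636_s_at moved in the same directions, but the dimmest one, 164553_r_at, hardly moved. That one read 6.70 and 6.94 in TgSREBP-1a against 6.68 and 6.97 in wild type. In the Scap study it read 6.56 and 6.76 in Scap-/- against 6.58 and 6.68 in wild type.

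Hilpda is a classical hypoxia-inducible gene, and a list of 38 hypoxia-responsive genes was set beside it. Of 15 measured, none was called in any of the 5 comparisons of 2 groups, in which 0.274% to 2.18% of all probe sets were called, so a count of 0 in 15 lies near the background. Their median change was 0.05 in TgSREBP-1a, -0.04 in TgSREBP-2 and -0.02 in Scap-/-. Epas1, the hypoxia factor HIF-2 alpha, changed by 0.70 ± 0.22 in TgSREBP-1a without reaching the threshold (adjusted p = 0.20). Hilpda and lipolysis genes are also targets of PPAR-alpha, a fatty acid receptor. Of 8 measured targets, the acyl-CoA thioesterase genes Acot1, Acot2 and Acot3 rose in TgSREBP-1a, and Ppara itself, Crot and Slc25a42 fell. Acot1 rose by 1.05 ± 0.18 in TgSREBP-1a and fell by 1.15 ± 0.18 in TgSREBP-2, and Acot2 rose by 1.66 ± 0.15 in TgSREBP-1a and changed by 0.09 ± 0.15 in TgSREBP-2. Of 4 measured targets of the oxysterol receptor LXR, Abcg5 and Mylip rose in TgSREBP-1a, by 1.34 ± 0.15 and 0.87 ± 0.15, and Abcg5 rose by 1.61 ± 0.15 in TgSREBP-2.

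The likeness of a pattern was measured as the root mean square difference between the 5 group means after each probe set's own mean was taken off, over 10578 probe sets of other genes. The genes nearest to Abhd5 were Lratd2 (0.116 log2 units), Klf3 (0.116) and Gcc2 (0.121), where the median probe set lay at 0.476. Lratd2 and Gcc2 were called higher in TgSREBP-1a, at 0.83 and 0.93, and Klf3 at 0.95 was not. The nearest genes were picked by these same group means, so their like changes follow from the choice and are no separate evidence. Nearest to Hilpda were 1700019D03Rik (0.0527), Mbnl2 (0.0594) and Snap29 (0.0597), against a median of 0.339. Hsd17b13 had no neighbour as close: Mttp, the microsomal triglyceride transfer protein that loads lipid into lipoproteins, lay at 0.273 by its probe set 164582_f_at, Aldh4a1 at 0.309 and Ddhd1 at 0.313, against a median of 0.709. Like Hsd17b13, that Mttp probe set was lower in TgSREBP-2, by -1.70, and this was called, but its change of 0.23 in TgSREBP-1a was smaller. Among the genes themselves Abhd5 and Hilpda were 0.298 apart, Abhd5 and Hsd17b13 0.571 apart, and Hilpda and Hsd17b13 0.699 apart.

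Genes that lie beside the 3 on the chromosome were checked, 3 protein-coding neighbours on each side. Of 18 neighbours 10 were measured, and none was called in any of the 5 comparisons of 2 groups, which is near the background of 0.274% to 2.18%. Beside Abhd5, Snrk changed by 1.03 and Ano10 by 0.47 in TgSREBP-1a, neither called. Beside Hilpda all changes lay between -0.12 and 0.11. Hsd17b13 lies next to Hsd17b11 and near Klhl8 and Aff1, whose changes against wild type lay between -0.24 and 0.15.

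Whole liver was measured, so a gene's level also depends on which cells the pools held, and fewer cells of a type cannot be told apart from less RNA per cell. The sums below are of linear values over a list's measured genes, from the lower to the higher array of a group. Brighter probe sets weigh more in them. For 4 of 20 hepatocyte markers the sum was 12803 to 14398 in wild type, 8802 to 9592 in TgSREBP-1a and 7267 to 12921 in TgSREBP-2. The complement genes C8a and C8b fell in TgSREBP-1a, with changes of -2.60 ± 0.24 and -2.22 ± 0.16, and Apoa1 and Hnf4a were not called. Summed macrophage, endothelial and stellate cell markers were higher in TgSREBP-1a, in which Abhd5 and Hilpda rose, and those of cholangiocytes (63.0 to 70.8 against 68.8 to 75.6 in wild type) and of lymphocytes and neutrophils (22.5 to 24.2 against 23.9 to 24.5) were not. The macrophage marker Cd163 rose by 0.91 ± 0.15, while Timd4, the only other macrophage marker measured, was not called. Their median change was 0.49, so the change of Timd4 was far smaller than that of Cd163. The sum of these 2 of 18 macrophage markers was 64.2 to 69.3 against 40.5 to 41.4 in wild type. The sinusoidal marker Lyve1 rose by 0.64 ± 0.10, and the sum of 8 of 20 endothelial markers was 1404 to 1496 against 1220 to 1287. The sum of 6 of 21 stellate cell markers, none of them called, was 654 to 782 against 509 to 606. Adipocytes are rich in ABHD5, and 3 of 15 adipocyte markers summed to 181 to 210 in TgSREBP-1a and 186 to 214 in wild type, with none called in either transgenic liver or in Scap-/-. Pancreatic acinar genes, a sign of attached pancreas, summed over 3 of 15 to 227 to 228 in TgSREBP-1a, 3217 to 4228 in TgSREBP-2 and 1970 to 2642 in wild type. Cpb1 and Cela3b fell in TgSREBP-1a and Ctrc rose in TgSREBP-2, opposite in order to Hsd17b13 across the transgenic study. In the Scap study, where Hsd17b13 changed by 0.03 ± 0.24, the same sum was 912 to 1114 in wild type and 260 to 269 in Scap-/-. The part of any of these cell types in the changes of the 3 genes was not tested.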

How the data were processed

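The deposited values are log2 expression values, made by the authors with RMA per the submitters' processing notes, while the design text of the series names MICROARRAY SUITE 5.0. The version, background correction and genome build are not given in the sources used here. Values were used as deposited. The table holds 12477 probe sets on 10 arrays. After 66 control probe sets were left out, 12411 were tested, of which 10581 have 1 gene symbol, 178 several and 1652 none in the platform annotation, which can be old. The 3 symbols were matched to RefSeq by gene ID.

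limma 3.58.1 in R 4.3.3 fitted 1 mean per group over all 10 arrays (lmFit, eBayes), with Benjamini-Hochberg adjustment over all probe sets. The fit has 5 residual degrees of freedom, so the hybridisation error is estimated from few arrays, and 1 pool per group gives no spread between mice. The steps were tested on simulated data. Alternatives were a fit of only the compared arrays, limma-trend with and without robust variances, other scalings, a filter on dim probe sets, no fold threshold, array number as a block, and each array left out. Figures were drawn with matplotlib 3.10.9.

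The genes, the 18 gene lists and the tests were chosen with earlier results of these data known. Genes were named by rule: all called members of the droplet, lipolysis, hydroxysteroid dehydrogenase and hydrolase lists, up to 4 of each other list, and the 3 nearest in pattern to each gene. A few genes were added after their values were seen (Abhd6, Acot3, Slc25a42 and the chromosomal neighbours). A gene stands by its brightest probe set. Lists of cholangiocyte and lymphocyte markers had 2 measured genes each and no call, and 1 erythroid marker, Tfrc, rose in TgSREBP-2.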

Additional observations from a re-analysis of the deposited data

Results flagged for a closer look

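All 3 genes differed between the TgSREBP-1a and TgSREBP-2 livers by a direct test: Abhd5 by 1.24 ± 0.17 (adjusted p = 0.0028, limma), Hilpda by 0.69 ± 0.09 (adjusted p = 0.0027) and Hsd17b13 by 1.93 ± 0.24 (adjusted p = 0.0018), each higher on both TgSREBP-1a arrays. For Abhd5 the TgSREBP-1a response also differed from the Scap-/- response, by 1.56 ± 0.23 (adjusted p = 0.0078). The groups of 2 arrays were too small for a search for outlying arrays.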

How the results depend on the processing

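Of 366 values of the 3 genes under alternatives, 348 kept their direction and side of the threshold, 4 lost a call, 8 gained one and 6 changed sign. Many of these values could not change direction. The trend, robust, block, dim-filter, fold-threshold and 4-array alternatives leave the log2 change as it is. Leaving out an array of a group outside the comparison does so too. The tally is therefore no measure of how stable the changes are. The trend, robust, scaling and dim-filter alternatives and the lack of a fold threshold changed no call of the 3 genes. The Hsd17b13 changes of 0.83 in TgSREBP-1a and -1.10 in TgSREBP-2 became called with only the 4 compared arrays and with array number as a replicate block (adjusted p = 0.022 and 0.013), which changed no other call of the 3 genes. The correlation of array differences was 0.343 to 0.598 among the 4 groups other than TgSREBP-2, and -0.167 to 0.113 between TgSREBP-2 and these, so the numbers were not taken to pair the arrays, although array 1 and array 2 differed alike in 4 of 5 groups. With 1 array left out, ranges were as follows. Abhd5 changed by 0.99 to 1.30 in TgSREBP-1a (not called without TgSREBP-1a array 1 or wild-type array 2), by -0.25 to 0.06 in TgSREBP-2, by 1.09 to 1.39 between the transgenic livers and by 1.36 to 1.76 between the TgSREBP-1a and Scap-/- responses. It was positive in TgSREBP-2 without wild-type array 1 (0.063) or TgSREBP-2 array 1 (0.055). Hilpda changed by -0.072 to 0.093 in TgSREBP-2 and was negative without wild-type array 2 (-0.011) or TgSREBP-2 array 2 (-0.072). Hsd17b13 changed by -1.25 to -0.95 in TgSREBP-2 and by -0.33 to 0.40 in Scap-/-, where it was negative without Scap-/- array 1 (-0.33) or Scap-study wild-type array 2 (-0.27).

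Of the 90 counts of called probe sets, 63 stayed within 1.5 times the reported one. With the block the count went from 62 to 101 in TgSREBP-2, from 34 to 91 in Scap-/- and from 63 to 145 between wild types. With 4 arrays it went to 5 in Scap-/- and to 13 between wild types. With 1 array left out it was 142 to 307 in TgSREBP-1a (270 reported), 25 to 124 in TgSREBP-2, 10 to 68 in Scap-/-, 87 to 384 between the transgenic livers (231 reported) and 14 to 120 between wild types. Apart from the fewer arrays used, the cause was not tested. A mean over a gene's probe sets gave no value, since each gene has 1. Each group is 1 RNA pool, so the number of arrays limits only how precisely that pool was read. Spread between mice was not measured, and more arrays of the same pools would not measure it.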
